A study of Sus scrofa with 20 samples.

Results

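Skin from the upper side of the foot was compared with skin of the flank in pigs, 2 haired sites that differ in their place on the body. The comparison uses 10 of the 20 RNA-seq libraries of the series, 5 on the upper foot side and 5 on the flank side. All come from 4 mm punch biopsies of wild-type (WT) female Yorkshire pigs, without treatment other than storage in RNAlater, and the other 10 libraries carry the labels volar (the sole) and snout in the first set and flank and volar in the second set described next. Each pig gave 1 library per site, and the 5 pigs were 4, 5, 6, 7 and 8 months old. Library numbers form 2 sets, the first from the pigs of 4, 8 and 7 months and the second from the pigs of 6 and 5 months. In the first set the labels were used as given, so that the 3 dorsal libraries form the upper foot side and the 3 flank libraries form the flank side. The second-set members were chosen by their expression: the 2 libraries labelled snout were placed on the upper foot side and the 2 labelled dorsal on the flank side, as the ones closest to first-set dorsal and first-set flank. That regrouping rests on measured values, so levels over all 10 libraries are a description with no test. The test was made on the first set alone, 3 dorsal against 3 flank libraries by their labels. The labels do not say whether the foot was a fore or a hind foot.

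Skin carries a record of its position, kept largely by dermal fibroblasts. Clustered HOX transcription factor genes are switched on in overlapping stretches along the body, with the low-numbered genes starting toward the head and the high-numbered genes restricted to the lower trunk and, in the limb, to its far end. Signals of the BMP, WNT and hedgehog families act on this map and set the spacing, size and cycling of hair follicles and the make-up of the dermis. A 4 mm punch holds epidermis, follicles, dermis and some of the layer below, and in such bulk tissue fewer cells of a type and less RNA per cell cannot be told apart.

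Total counts of the 10 libraries ran from 34077861 to 59112808, genes with 10 or more counts from 14496 to 15051, and the share of the 20 most abundant genes from 17.1% to 32.8%. The values that placed them were Pearson correlations over the 2000 most variable genes, each gene centred on the mean of its set. The libraries labelled snout reached r = 0.86 (6 months) and 0.82 (5 months) with first-set dorsal, against 0.64 and 0.68 with first-set flank. Those labelled dorsal reached 0.81 and 0.84 with flank, against 0.75 and 0.63 with dorsal, so the 6-month library lay nearest to the boundary. The other second-set labels disagreed with the first set as well: the libraries labelled flank were closest to first-set volar (0.87 and 0.87) and those labelled volar to first-set snout (0.83 and 0.78). The closest site of each second-set library was the same without the hair, cornified envelope, epidermal keratin and skeletal muscle genes and without the HOX genes. Of the first-set libraries, the 7-month flank library went against its label, at 0.71 with dorsal and 0.67 with flank. Its label was kept, and counts without it are given beside the main counts.

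**Figure D1:**
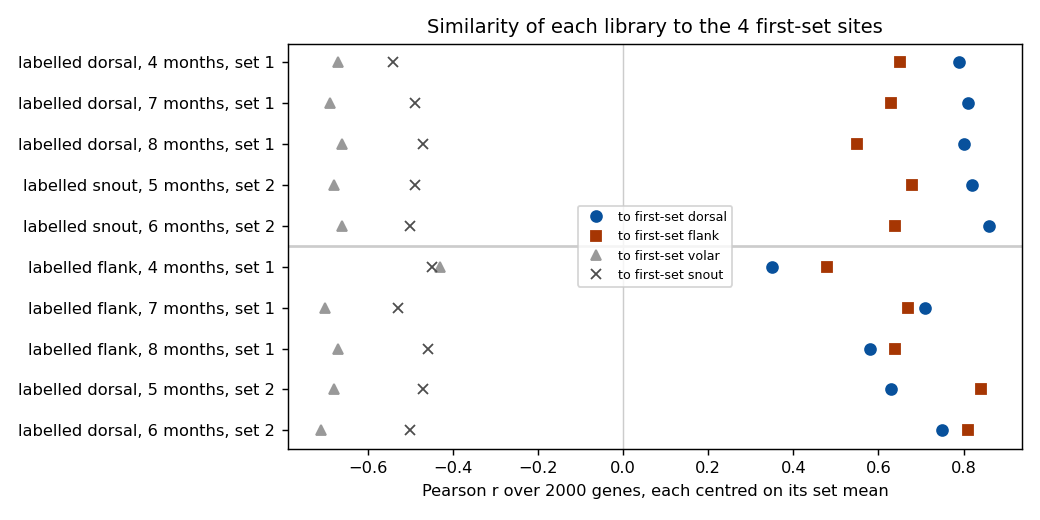
Each row is 1 of the 10 libraries, and the points give its Pearson r over 2000 genes with the mean of each first-set site (a first-set library is left out of the mean of its own site). The libraries labelled snout in set 2 lie nearest to first-set dorsal (0.86 and 0.82), those labelled dorsal in set 2 nearest to first-set flank (0.81 and 0.84), and the 7-month flank library nearest to dorsal (0.71 against 0.67).

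Defining markers of the sites come from the same expression values that placed the second-set libraries. They are a description and no independent evidence for that placement. All 10 libraries held hair follicle RNA. KRT71, a keratin of the inner root sheath, ranged from 2010 to 6010 CPM (counts scaled to a common library size, with TMM factors) on the upper foot side and from 193 to 7560 CPM on the flank side, against a mean of 0.0858 CPM in first-set volar skin. The libraries labelled snout lacked the snout pattern of the first set. ALX1, a regulator of facial mesenchyme, was at 0.424 and 0.127 CPM in them against a mean of 18.5 CPM in first-set snout, and the keratin gene KRT24 at 0.0447 and 0.271 CPM against 13000 CPM. HOXC10, a gene of the lower trunk and limb with no count in first-set snout, was at 2.37 and 2.58 CPM in these libraries. EN1, which marks the ventral limb ectoderm, stayed low on both sides, with 0.728 to 1.5 CPM on the upper foot side and 0.347 to 3.36 CPM on the flank side, against a mean of 11.8 CPM in first-set volar.

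Within the first set, 20 genes of 15302 tested differed between dorsal and flank skin (edgeR quasi-likelihood test, Benjamini-Hochberg adjusted p under 0.05, 0.131% of the genes tested), 12 higher in dorsal (0.0784%) and 8 lower (0.0523%). At an unadjusted p under 0.05 there were 1380 genes (9.02%), 576 higher (3.76%) and 804 lower (5.25%). The pigs are separate animals and each gave both sites; with the pig as a block the test called 32 genes, 16 of them among the 20. The count also moved with single libraries. It fell to 2, 1 and 2 genes without the dorsal library of the 4-, 8- and 7-month pig, and stood at 40, 13 and 6 without the flank library of the same pigs. Without the 8-month snout library it was 13, and without the 7-month volar library 42, although neither site is part of the comparison. Of the 20 genes, 1 kept its call in all of the 21 alternatives and 19 lost it when some library was left out, while the sign of the difference was the same for all 20 in all 21. In the second set the mean difference had the same direction for all 20. This was not tested, and placing these libraries by their closeness to the first-set sites favours it. Of the 14983 genes past the low-count filter over the 10 libraries, 630 did not overlap between the 2 sides (4.20%; 263 higher on the upper foot side, 1.76%, and 367 lower, 2.45%). They include 16 of the 20, which the regrouping also favours. TRPM8 did not overlap either but was below that filter, and RHCG and 2 genes without a symbol overlapped. Without the 7-month flank library the number without overlap was 889 of 15073 genes. Without the 4-month flank library it was 1184 of 15091, and without the 6-month library labelled dorsal 960 of 15077. In the first set alone it was 2235 of 15016. Fewer libraries leave fewer chances to overlap, so these counts are not on a par with the 630.

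**Figure D2:**
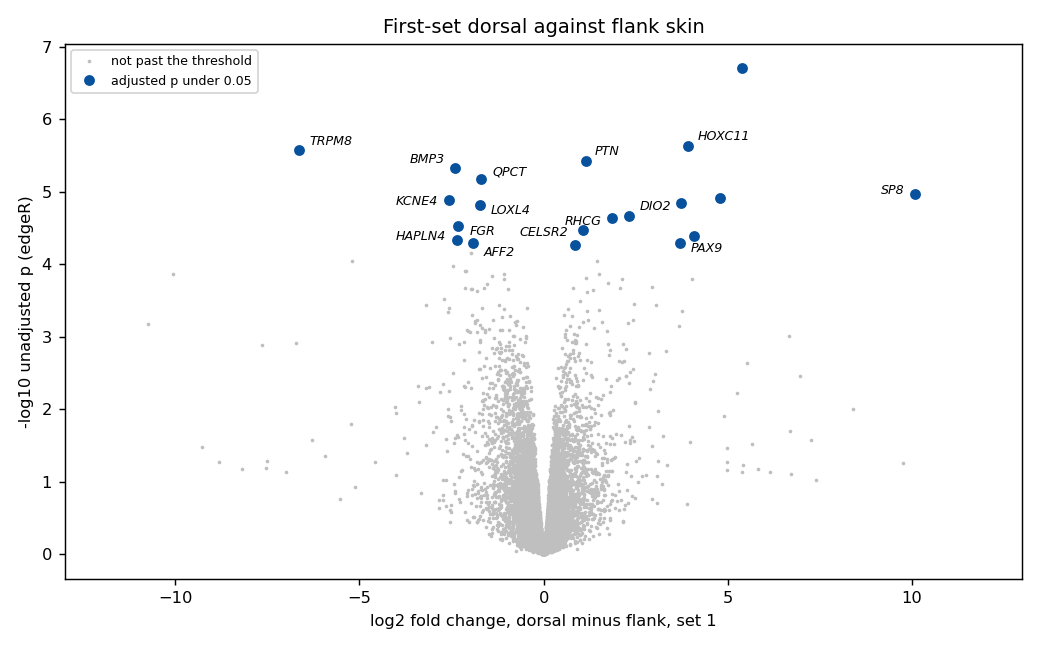
Each point is 1 of the genes tested in the first set, with the log2 fold change of dorsal minus flank on the x axis and the -log10 of the unadjusted edgeR p on the y axis. The 20 genes with an adjusted p under 0.05 are large and those with a symbol are named, 7 to the right and 8 to the left; the position of SP8 at 10.09 depends on a flank count of 0.

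The levels below are CPM, given in the order 4, 8 and 7 months for first-set libraries and 6 and 5 months for second-set libraries. Differences are log2 fold changes of first-set dorsal minus flank with their standard error and the adjusted p of the same fit, 3 libraries a site. DIO2, PTN, BMP3, KCNE4 and HOXC8 were supplied as markers of this comparison from earlier results of the same data, so their differences are a description and no independent evidence.

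SP8 and HOXC11, which pattern the limb, were called higher in dorsal. SP8 (ENSSSCG00000031078), a zinc finger factor of the limb's apical ectodermal ridge that sustains outgrowth, was at 2.15, 2.35 and 2.63 CPM in first-set dorsal and 2.37 and 1.86 CPM in the libraries labelled snout. It had no count in any first-set flank library and stood at 0.0521 and 0 CPM in those labelled dorsal. The sides were apart in every library, at a low level. The first-set difference is at least 138-fold with a floor of 3 counts over the 3 flank libraries (adjusted p = 0.0213). HOXC11 (ENSSSCG00000028104), a posterior HOX gene of the hind body and limb, was at 2.02, 1.68 and 2.05 CPM in dorsal against 0.0926, 0.139 and 0.135 CPM in flank. In the second set it was at 1.41 and 1.51 CPM in the libraries labelled snout against 0.104 and 0.281 CPM. The lowest upper foot library thus lay far above the highest flank library, and the first-set difference was 3.93 ± 0.37 (adjusted p = 0.0137). PAX9, a paired-box factor known from limb, tooth and pharyngeal development, was named after its values were seen. It was higher in dorsal (1.42, 1.29 and 1.3 CPM against 0.0695, 0.154 and 0.075 CPM; 3.70 ± 0.57, adjusted p = 0.0409), with an adjusted p of 0.0604 with the pig as a block.

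The HOX genes divided by their number along the cluster. Of 12 tested genes of paralog groups 9 to 13, 5 were higher and 1 lower in dorsal at an unadjusted p under 0.05, with a median difference of 1.46 and 10 above 0; 1 of them, HOXC11, passed the adjusted threshold. Of 19 tested genes of groups 1 to 8, none was higher and 11 were lower at an unadjusted p under 0.05, with a median of -1.47 and all 19 below 0, and none passed the adjusted threshold. Over all genes the median was -0.03, with 6970 above 0 and 8323 below 0. At an unadjusted p under 0.05, 3.76% of all genes tested were higher and 5.25% lower. Across the 10 libraries 1.76% of all genes were higher on the upper foot side without overlap and 2.45% lower. Of 12 genes of groups 9 to 13, 6 were higher in this way and 1 lower. Of 20 genes of groups 1 to 8, 7 were lower and none higher. The paralog groups share cluster neighbours, so these genes are not independent of each other. HOXA13 and HOXD13 had no matched symbol and could not be looked up by name, so whether they are among the genes without a symbol is not known here. Genes without a symbol, some of them called, were not placed in these groups.

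HOXA11, which patterns the middle segment of the limb, was at 4.38, 3.24 and 4.45 CPM in first-set dorsal and 4.58 and 6.39 CPM in the libraries labelled snout. In flank it was at 0.0926, 0.678 and 0.0899 CPM and in those labelled dorsal at 0.417 and 0.193 CPM. No flank library reached the lowest upper foot library, yet the first-set difference of 3.77 ± 0.76 missed the threshold (adjusted p = 0.11). HOXC12 had a difference of 4.03 ± 0.64 (adjusted p = 0.0712), and its 10 libraries did not overlap either (at least 1.19 CPM against at most 0.208 CPM). HOXD12 was at 0.222 to 0.302 CPM in first-set dorsal and without a count in first-set flank, at least 15.5-fold by the same floor (adjusted p = 0.22); the median of its list is the same with this gene at its bound. For HOXA10, at 5.92 to 9 CPM on the upper foot side, flank skin was at 0.255, 2.45 and 0.015 CPM in the first set and 0.391 and 0 CPM in the second (2.94 ± 1.16, adjusted p = 0.48). The 8-month pig's flank library stood highest of the flank side for both HOXA10 and HOXA11.

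At the other end of the cluster, HOXC8 (ENSSSCG00000038644), a gene of the trunk, was at 2.57, 3.54 and 3.43 CPM in first-set dorsal against 8.34, 9.31 and 9.2 CPM in flank. In the second set it was at 4.82 and 4.05 CPM in the libraries labelled snout against 14.4 and 14.9 CPM. The sides did not overlap, and the first-set difference of -1.49 ± 0.40 did not pass the threshold (adjusted p = 0.243). HOXC6 (-1.87 ± 0.36, adjusted p = 0.126), HOXC5 (-2.08 ± 0.45, 0.132) and HOXC9 (-1.18 ± 0.24, 0.132) also lay below flank in every pig of both sets. HOXB2 missed the threshold (-2.70 ± 0.52, adjusted p = 0.0972) and passed it with the pig as a block (0.0456). HOXC9 and HOXC11 belong to 1 cluster and differed in opposite directions, with HOXC10 between them at 0.84 ± 0.42 (adjusted p = 0.624; 2.18 to 3.07 CPM on the upper foot side and 0.72 to 2.27 CPM on the flank side). These last 2 ranges overlap.

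**Figure D3:**
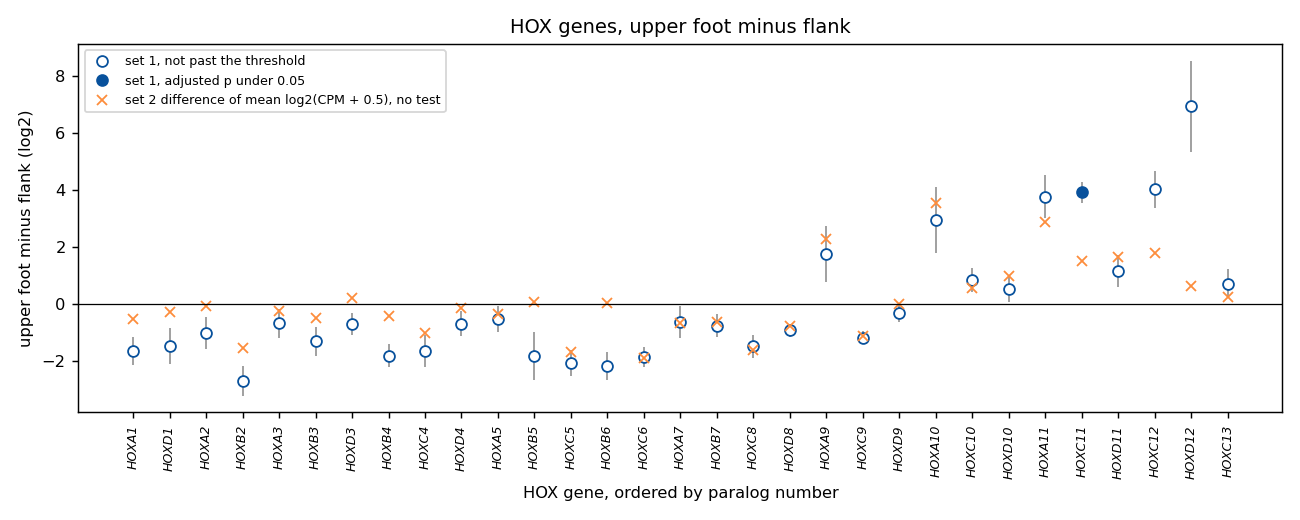
HOX genes tested in the first set are ordered by paralog number on the x axis; circles give the edgeR log2 fold change of first-set dorsal minus flank with its standard error, and crosses the second-set difference of mean log2(CPM + 0.5) between the libraries labelled snout and dorsal, which is on a flatter scale for low genes. Groups 1 to 8 lie below 0 in the first set and 10 of 12 genes of groups 9 to 13 above 0; only the filled circle of HOXC11 is past the threshold, and HOXD12 (6.95) is a fit against no count.

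Other limb factors were less divided. Of 16 tested limb patterning genes 5 were higher and 2 lower in dorsal at an unadjusted p under 0.05 (median 0.33), and 1, SP8, passed the adjusted threshold. The shares of all genes tested at that unadjusted p were 3.76% higher and 5.25% lower. MEIS1, a cofactor of HOX proteins that marks the near end of the limb, was at 9.94, 9.44 and 9.89 CPM in dorsal and 34.9, 22.5 and 20.5 CPM in flank, and at 8.75 and 12.1 CPM against 20.7 and 22.1 CPM in the second set. These libraries did not overlap. The first-set difference was -1.41 ± 0.25 (adjusted p = 0.0712, and 0.0382 with the pig as a block). First-set volar skin, the other foot site, did not share the low MEIS1 level, with a mean of 28.9 CPM. The second-set libraries labelled flank, which were closest to volar, had a mean of 48.2 CPM. MSX1, a homeobox gene induced by BMP, lay higher on the upper foot side (4.77 to 9.33 CPM against 1.85 to 3.52 CPM; 0.94 ± 0.26, adjusted p = 0.238). LMX1B, which specifies the dorsal side of the limb, was at 4.38, 3.84 and 4.11 CPM in dorsal against 1.27, 2.96 and 2.29 CPM in flank (0.91 ± 0.27, adjusted p = 0.275), and at 5.6 and 4.6 CPM against 3.85 and 4.24 CPM in the second set, so the 10 libraries overlap. TBX5 and TBX4, the T-box genes of fore limb and hind limb, were both measured on both sides with overlapping ranges: TBX5 4.66 to 8.24 CPM against 1.61 to 5.38 CPM, and TBX4 0.971 to 4.2 CPM against 0.88 to 2.5 CPM. PITX1 had no matched symbol and could not be looked up by name.

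DIO2 (ENSSSCG00000040638), the deiodinase that turns thyroxine into the active thyroid hormone within the cell, was at 115, 65.2 and 91.2 CPM in first-set dorsal and 46.9 and 70.3 CPM in the libraries labelled snout. In flank it was at 10.7, 21.6 and 22.3 CPM, and in those labelled dorsal at 15.6 and 30.1 CPM. Every upper foot library lay above every flank library, and the first-set difference was 2.31 ± 0.33 (adjusted p = 0.0266; 0.0505 with the pig as a block). The rest of the thyroid hormone system did not go with it. Of its 14 tested genes 2 were higher at an unadjusted p under 0.05, DIO2 and DIO1, with a median of 0.04. Among all genes tested 3.76% were higher at that p. DIO1, another activating deiodinase, was at 3.62, 2.31 and 4.45 CPM in dorsal against 0.857, 0.833 and 0.435 CPM in flank (2.29 ± 0.49, adjusted p = 0.126), but 3.62 and 2.04 CPM against 3.57 and 1.34 CPM in the second set, where the ranges overlap. The receptor genes THRA (0.02 ± 0.14) and THRB (-0.29 ± 0.18) were not called. KLF9, a gene induced by the hormone's receptor, had no clear order (-0.25 ± 0.76): it was highest in the 4-month pig at both sites, at 167 CPM in dorsal and 216 CPM in flank.

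PTN (ENSSSCG00000016522) encodes pleiotrophin, a secreted heparin-binding growth factor of mesenchyme and nerve. It was at 53.7, 54.2 and 43.7 CPM in first-set dorsal against 21.7, 21.4 and 24.9 CPM in flank. In the second set it was at 58.2 and 82 CPM in the libraries labelled snout against 30.3 and 42.3 CPM in those labelled dorsal. The first-set ranges were well apart (1.15 ± 0.13, adjusted p = 0.0143), whereas over all 10 libraries the gap was narrow, from 42.3 to 43.7 CPM. Both second-set groups were higher than their first-set counterparts. Of 10 tested genes of the pleiotrophin and midkine system 4 were higher at an unadjusted p under 0.05, with a median of 0.05, and none but PTN passed the adjusted threshold. For all genes tested the share higher at that unadjusted p was 3.76%. The integrin gene ITGAV had a difference of 0.31 ± 0.11 (adjusted p = 0.418), and the related ligand gene MDK one of 0.12 ± 0.34.

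Other genes called higher in dorsal were CELSR2, a cadherin of planar cell polarity (0.85 ± 0.13, adjusted p = 0.0409), and RHCG, an epithelial ammonia channel (1.87 ± 0.27, adjusted p = 0.0266). CELSR2 was at 56.5, 50.3 and 51.9 CPM in dorsal against 30.7, 28 and 29.5 CPM in flank, and at 40.7 and 41.7 CPM against 37.9 and 23.7 CPM in the second set. RHCG was at 20.3, 18 and 14.8 CPM against 5.81, 3.28 and 5.41 CPM, but in the second set at 14.8 and 9.97 CPM against 10.3 and 3.59 CPM, so its 10 libraries overlap. The remaining 5 genes had no symbol in the name tables. ENSSSCG00000015979 had the lowest adjusted p of the comparison (5.39 ± 0.47, adjusted p = 0.00302) and was the gene that kept its call in every alternative. It was at 7.12, 5.08 and 6.45 CPM in dorsal and 9.15 and 8.82 CPM in the libraries labelled snout, against 0.116, 0.123 and 0.195 CPM and 0.0781 and 0.106 CPM on the flank side. ENSSSCG00000029666 was at 9.18 to 14.9 CPM on the upper foot side and 0.347 to 1.06 CPM on the flank side (4.09 ± 0.62, adjusted p = 0.0394). Both were named after their values were seen, and in both the 2 sides are apart in every library.

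Among genes lower on the upper foot, BMP3 (ENSSSCG00000029061), an atypical BMP family member that opposes BMP signalling, was at 8.66, 7.5 and 7.54 CPM in first-set dorsal against 39.3, 32.2 and 53.9 CPM in flank. In the second set it was at 8.98 and 7.6 CPM in the libraries labelled snout against 20.3 and 21.7 CPM in those labelled dorsal. The 5 upper foot libraries lay within a narrow band, all under every flank library, while flank levels were higher in the first set than in the second. The first-set difference was -2.40 ± 0.29 (adjusted p = 0.0145). BMP3 was the only one of 14 tested BMP ligand genes to pass the threshold; 1 other, INHBA, which encodes an activin subunit, was higher at an unadjusted p under 0.05 (0.85 ± 0.21, adjusted p = 0.178), and the list had a median of 0.26. BMP2, BMP4 and BMP7 differed by 0.30 ± 0.18, 0.22 ± 0.43 and -0.25 ± 0.20. Of 16 genes in the BMP inhibitor list, 3 were lower at an unadjusted p under 0.05 and none higher (median -0.26). They were GREM1, NBL1 and RGMB, with adjusted p from 0.178 to 0.303. RGMB encodes a BMP co-receptor, so the list is not of inhibitors alone. Without the 8-month flank library the median of this list was 0.01. At an unadjusted p under 0.05, 3.76% of all genes tested were higher and 5.25% lower.

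KCNE4 (ENSSSCG00000038149), an accessory subunit that damps voltage-gated potassium channels, was at 8.05, 10 and 9.72 CPM in first-set dorsal against 42.2, 47.6 and 76.3 CPM in flank. The second set had 5.72 and 10.6 CPM in the libraries labelled snout against 14.3 and 38.1 CPM in those labelled dorsal. All upper foot libraries lay below all flank libraries, with the 6-month library labelled dorsal nearest to them, the same library that lay nearest to the boundary of the regrouping. The first-set difference was -2.58 ± 0.34 (adjusted p = 0.0213), and none of the other 11 tested genes of its list of channel subunits and partners had an unadjusted p under 0.05 (KCNQ1 0.47 ± 0.64).

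Matrix and secreted factors made up part of the other lower genes. LOXL4, a lysyl oxidase that cross-links collagen, was at 15.2, 9.51 and 12.1 CPM in dorsal against 47, 43.1 and 31 CPM in flank, and at 13 and 10.8 CPM against 27.2 and 27.8 CPM in the second set. Its difference was -1.72 ± 0.23 (adjusted p = 0.0213). QPCT, which forms pyroglutamate at the start of secreted peptides, was nearly constant on the upper foot side at 17.9 to 20.4 CPM and ranged from 44.6 to 81.6 CPM on the flank side (-1.69 ± 0.21, adjusted p = 0.0169). HAPLN4, a link protein of hyaluronan matrix (-2.35 ± 0.36, adjusted p = 0.0409), and AFF2, a nuclear protein of transcription elongation (-1.91 ± 0.30, 0.0409), were each at 0.0505 with the pig as a block. FGR, a SRC family kinase gene of myeloid cells, was at 9.44 to 16.3 CPM on the upper foot side and 32.4 to 95.6 CPM on the flank side (-2.31 ± 0.34, adjusted p = 0.0326). Of 14 tested macrophage and dendritic cell markers none had an unadjusted p under 0.05 (median -0.30), and their summed level was 476 to 561 CPM in first-set dorsal, 475 to 902 CPM in flank, 597 to 616 CPM in the libraries labelled snout and 642 to 860 CPM in those labelled dorsal. Without the 8-month flank library their median was 0.12. The part of these cells in the FGR difference was not tested.

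TRPM8, the cold-sensing ion channel of skin nerve endings, was named after its values were seen. It had 215 counts over the 3 first-set flank libraries (1.85, 1.17 and 0.884 CPM) and 2 counts over the 3 dorsal libraries, a ratio of 118 after scaling to library size with a 95% interval of 32.1 to 977 that covers counting error only (adjusted p = 0.0137). The second set did not show flank levels of that size: the libraries labelled dorsal were at 0.0521 and 0.088 CPM and those labelled snout at 0.0223 and 0.0159 CPM, or 7 counts against 2. TRPM8 fell below the low-count filter over the 10 libraries. Of 13 tested nerve and Schwann cell markers, 0 had an unadjusted p under 0.05 in the first set (median 0.05). Their summed level was 181 to 208 CPM in first-set dorsal and 191 to 250 CPM in flank. In the second set it was 211 to 228 CPM in the libraries labelled snout and 246 to 272 CPM in those labelled dorsal. The part of nerve content in the TRPM8 difference was not tested.

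**Figure D4:**
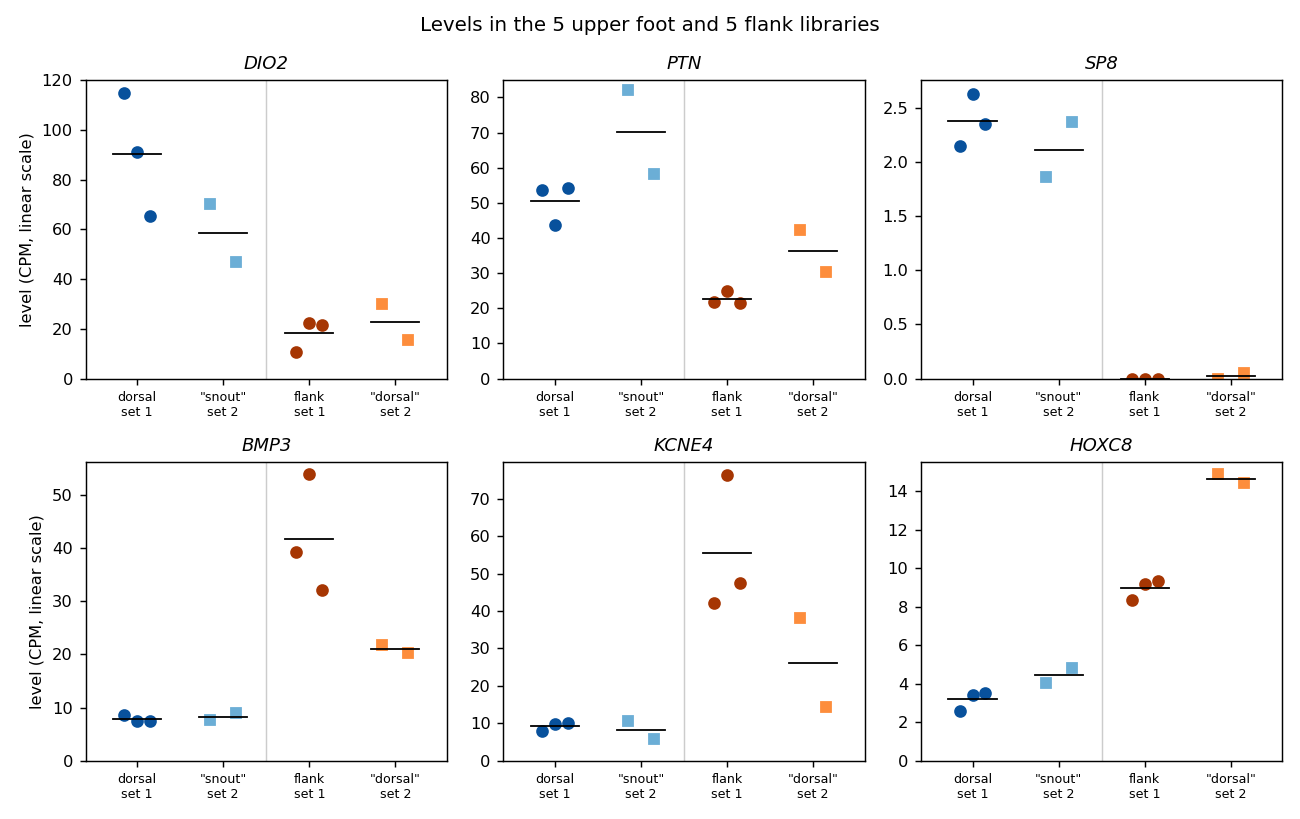
Levels in CPM on linear axes from 0, 1 point a library, for the 5 supplied markers and SP8; bars are group means, quotation marks show second-set labels, and the grey line parts the upper foot side (left) from the flank side. In each panel the 2 sides are apart in all 10 libraries, by the least for PTN (42.3 against 43.7 CPM); SP8 has 1.86 CPM or more on the left and at most 0.0521 CPM on the right.

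Dermal matrix genes went in both directions. Of 27 tested collagen genes 5 were higher and 8 lower in dorsal at an unadjusted p under 0.05 and none passed the adjusted threshold (median -0.14). The shares of all genes tested at that unadjusted p were 3.76% higher and 5.25% lower. The abundant fibrillar collagens lay lower. COL1A1, the main chain of type I collagen, was at 11500, 3050 and 6370 CPM in dorsal against 21400, 25400 and 14100 CPM in flank, and at 5110 and 10700 CPM against 19800 and 39400 CPM in the second set. The 10 libraries did not overlap, with a first-set difference of -1.54 ± 0.49 (adjusted p = 0.304). COL3A1 followed it (15000 to 38100 CPM against 45000 to 93800 CPM; -1.23 ± 0.43, adjusted p = 0.372). DCN, the collagen-binding proteoglycan decorin, was at 1690 to 1850 CPM in first-set dorsal and 2910 to 5100 CPM in flank (-1.19 ± 0.31, adjusted p = 0.202). MFAP5, a microfibril protein, was at 33.5 to 76 CPM on the upper foot side and 141 to 209 CPM on the flank side (-1.72 ± 0.39, adjusted p = 0.149). Of 20 elastic fibre genes 7 were lower and 1 higher at an unadjusted p under 0.05 (median -0.66, and -0.38 without the 8-month flank library), and of 13 small leucine-rich proteoglycans 5 were lower and none higher (median -0.45). CPM are shares of a library, and no gene of these lists was called.

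Genes of tendon and cartilage matrix lay the other way. Of 18 tested, 6 were higher and 2 lower at an unadjusted p under 0.05, with a median of 0.89 and none past the adjusted threshold. Among all genes tested 3.76% were higher and 5.25% lower at that unadjusted p. Without the 4-month dorsal library the list median was 0.45. Over the 10 libraries the median difference of log2(CPM + 0.5) was 0.36, and in the second set 0.33, without a test. TNN, tenascin N, was at 67.8, 75.6 and 69.9 CPM in dorsal against 26, 22.6 and 29.1 CPM in flank, and at 96.3 and 102 CPM against 30.7 and 30.5 CPM in the second set. The replicate libraries were close together and the sides far apart, at 1.46 ± 0.24 (adjusted p = 0.0602). CILP, a protein of cartilage and fibrous tissue that binds growth factors, ranged from 96.3 to 226 CPM against 24.1 to 52.2 CPM (2.23 ± 0.53, adjusted p = 0.162). THBS4, a thrombospondin of tendon and muscle attachments, differed by 2.15 ± 0.50 (adjusted p = 0.15) and passed the threshold with the pig as a block (0.0097). COMP (3.33 ± 0.79, adjusted p = 0.165) and TNMD, the tendon membrane protein tenomodulin (2.88 ± 0.83, 0.244), lay at or below 8.63 CPM in all 10 libraries. MATN4 went against the list at -1.98 ± 0.57 (adjusted p = 0.243).

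**Figure D5:**
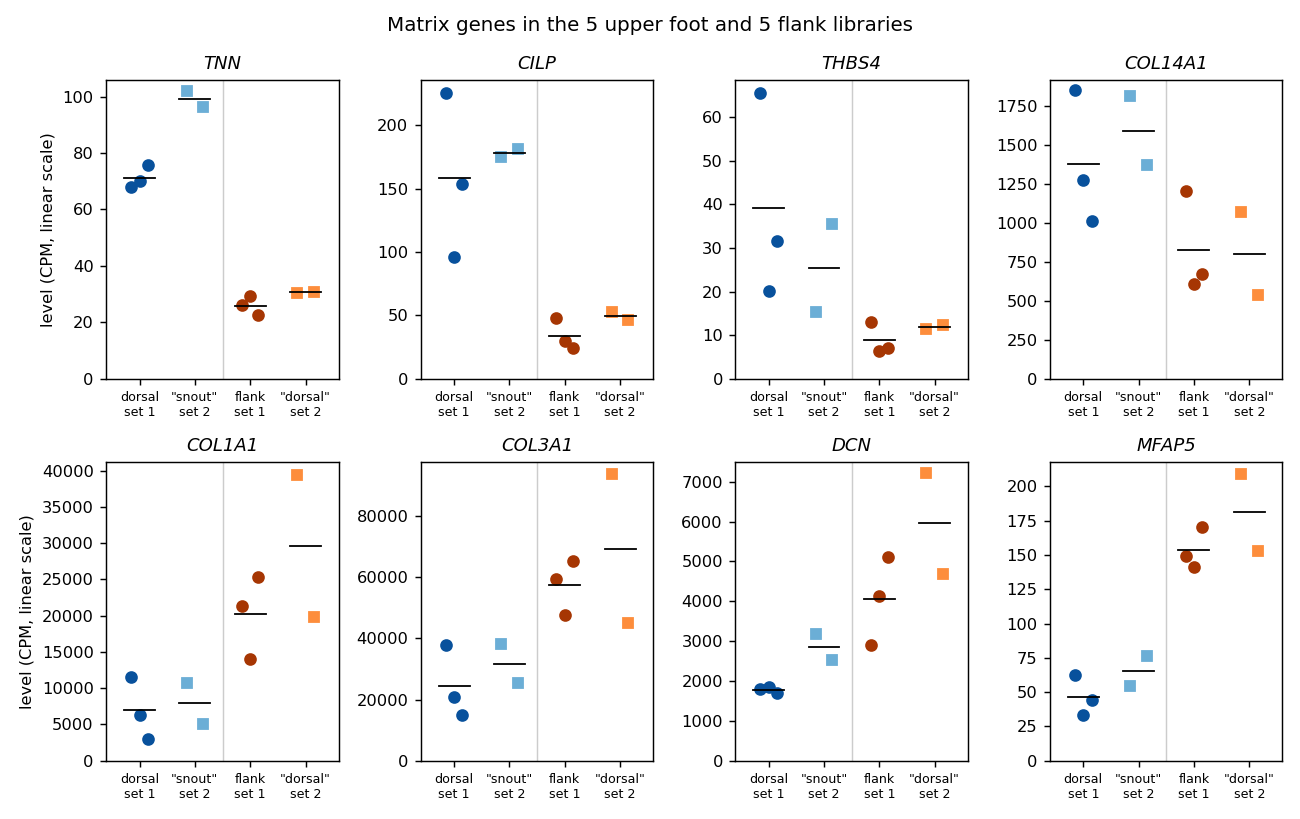
Levels in CPM on linear axes from 0 for 4 matrix genes that lay higher on the upper foot side in the first set (top row) and 4 that lay lower (bottom row), 1 point a library, with group means as bars and second-set labels in quotation marks. The sides are apart in all 10 libraries for TNN (at least 67.8 against at most 30.7 CPM) and MFAP5 (at most 76 against at least 141 CPM), while for COL14A1 and DCN they overlap; none of the 8 genes passed the adjusted threshold.

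Signalling genes of the hair follicle were not called. All 11 tested hedgehog pathway genes lay above 0 (3 at an unadjusted p under 0.05, median 0.47), among them the receptor gene PTCH1 (0.48 ± 0.12, adjusted p = 0.197) and HHIP, an inhibitor induced by the pathway (2.31 ± 0.64, 0.23). The shares of all genes tested at that unadjusted p were 3.76% higher and 5.25% lower. Of 17 tested WNT ligand and R-spondin genes 3 were lower and none higher at an unadjusted p under 0.05 (median 0.06). WNT5B was at 3.44 to 5.43 CPM against 5.94 to 9.67 CPM (-0.90 ± 0.33, adjusted p = 0.423). Of 20 WNT receptors and targets 6 were higher and 2 lower at an unadjusted p under 0.05 (median 0.19). Across the 10 libraries 3 of these 20 were higher without overlap and 2 lower, against 1.76% and 2.45% of all genes. LGR5, an R-spondin receptor of follicle stem cells, was at 20.5, 19 and 26.4 CPM in dorsal against 9.84, 9.82 and 12.7 CPM in flank, and at 31.9 and 47.5 CPM against 14.5 and 10.6 CPM in the second set. Its sides did not overlap, although the first-set difference of 1.03 ± 0.35 missed the threshold (adjusted p = 0.389). FZD1, a WNT receptor, was closely grouped at 60.6 to 65.8 CPM against 32.5 to 43.1 CPM (0.77 ± 0.18, adjusted p = 0.149). Of 14 secreted WNT inhibitors 4 were higher and none lower at an unadjusted p under 0.05 (median 0.44), with SFRP2 at 11.1 to 51.3 CPM against 3.06 to 9.25 CPM (2.17 ± 0.54, adjusted p = 0.18).

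Hair shaft and inner root sheath genes all lay above 0 (25 of 25, median 1.24), with 1 at an unadjusted p under 0.05 and none called; without the 8-month dorsal library 21 did, with a median of 0.65. Their summed level was 6560 to 17600 CPM in first-set dorsal and 616 to 8940 CPM in flank, and 13900 to 16400 CPM against 7540 to 21300 CPM in the second set. These ranges overlap in both sets, and the lowest flank value was in the 4-month pig's library. The 1 gene was KRT84, a hair keratin, at 13.9, 2.61 and 74.7 CPM in dorsal against 0.185, 0.941 and 0.824 CPM in flank (5.51 ± 1.38, adjusted p = 0.184). Reads of hair keratin genes can be shared among near-identical family members, so single values are uncertain. At an unadjusted p under 0.05, 3.76% of all genes tested were higher and 5.25% lower. Of 21 desmosome and junction genes 5 were higher and none lower at an unadjusted p under 0.05 (median 0.30), led by DSG3, a desmosomal cadherin of the epidermis (838 to 1130 CPM against 346 to 727 CPM; 1.00 ± 0.19, adjusted p = 0.099).

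Markers of other tissues in the punch differed in level between libraries, without a call. All 14 tested adipocyte genes lay below 0 in dorsal (2 at an unadjusted p under 0.05, median -0.95), with summed levels of 802 to 1030 CPM in dorsal and 611 to 3860 CPM in flank, and 940 to 1020 CPM against 1100 to 2510 CPM in the second set. Among all genes tested 5.25% were lower at that unadjusted p. This rests on 1 library: without the 8-month flank library 10 of the 14 lay above 0, with a median of 0.68, and with the pig as a block 3 did, with a median of -0.41. ADIPOQ, the fat hormone adiponectin, was at 44, 1320 and 117 CPM in the 3 first-set flank libraries and at 217 to 290 CPM in dorsal. Summed skeletal muscle genes were at 67.5 to 86.5 CPM in dorsal and 99.2 to 312 CPM in flank, and at 83.4 to 103 CPM against 227 to 250 CPM in the second set (0 of 14 at an unadjusted p under 0.05). The defining muscle marker ACTA1 was at or below 1.04 CPM in all 10 libraries, and CKM at 1.68 to 2.08 CPM against 3.85 to 10.3 CPM. The part of fat, muscle and follicle content in the differences above was not tested.

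Among genes with a symbol and a mean of at least 5 CPM on the higher side, the 12 per direction with the widest gap between the 5 and 5 libraries in log2(CPM + 0.5), a description that the regrouping favours, included several outside these lists. On the upper foot side ANGPTL7, a secreted factor of cornea and fibrous tissue, was at 19.8, 24.4, 12.2, 30.9 and 3.17 CPM, against at most 0.756 CPM on the flank side (4.90 ± 1.63 in the first set, adjusted p = 0.343). NRN1, a neurite-promoting membrane protein, was at 8.66 to 30.9 CPM against 0.075 to 2.81 CPM (5.24 ± 1.53, adjusted p = 0.258). IGFBP2, which binds insulin-like growth factors, was at 25.5 to 30.2 CPM against 7.57 to 15 CPM (1.17 ± 0.23, adjusted p = 0.11). The collagenase gene MMP1 was at 10.2 to 35.9 CPM against 0.694 to 5.76 CPM. SLC38A4, an amino acid transporter, C1QTNF12 and DAPK2 were the others on the higher side, with lowest upper foot levels of 8.72, 12.8 and 8.04 CPM and highest flank levels of 4.31, 7.83 and 5.03 CPM.

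On the flank side DMRT2, a factor of somite and dermomyotome development, was at 8.98, 15.1, 13.5, 12.7 and 22.5 CPM against 1.35 to 3.52 CPM (-2.58 ± 0.75 in the first set, adjusted p = 0.25). PI16, a marker of adventitial and fascia-type fibroblasts, was at 360 to 649 CPM against 132 to 183 CPM (-1.50 ± 0.60, adjusted p = 0.471). PLXDC1 was at 184 to 407 CPM against 66.9 to 97.5 CPM (-1.81 ± 0.34, adjusted p = 0.077). CTHRC1, a secreted protein of matrix-producing fibroblasts, was at 27.9 to 74.2 CPM against 5.56 to 15.8 CPM (-1.74 ± 0.42, adjusted p = 0.167), and CSMD1 at 6.21 to 13 CPM against 1.31 to 2.99 CPM. None of these 5 was called in the first set.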

How the data were processed

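The authors deposited 1 table of estimated counts for Ensembl gene identifiers. The submitters' processing notes name Salmon, without a version; build and annotation are not stated in the labels or the file, so no coordinates or sequences are shown. Per the labels' protocols, a kit for fibrous tissue was used for RNA and TruSeq stranded mRNA for the libraries. The 42.2% of values that were not whole (tolerance 0.000000001) were rounded. Of 19280 gene identifiers 14821 matched a symbol, 4459 did not and 1511 had no count. The highest r between any 2 of the 10 libraries was 0.988, and none was a copy.

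Genes passing filterByExpr (count minimum of 10, total of at least 15) were tested by robust quasi-likelihood F tests of edgeR 4.0.16 (R 4.3.3) on TMM-scaled libraries, and p-values were adjusted by Benjamini-Hochberg over all genes. The fit held the 12 first-set libraries (8 residual degrees of freedom) without a pig term, and the standard error is the fold change divided by the square root of F. CPM were TMM-scaled over 20 libraries. The 10 regrouped libraries were described on log2(CPM + 0.5), with no test. Sites of 1 pig come from the same animal, which pairs the libraries; their deviations from the site means had r = 0.44, 0.24 and 0.19 in the 4-, 8- and 7-month pigs. Blocked values are printed where they change a call. Alternatives were DESeq2 1.42.0, limma-voom (limma 3.58.1), other scalings and filters, the 6 libraries alone, the block and each library left out. The main test was checked on simulated counts of 15188 genes. It recovered 37 of 100 genes changed 2-fold and 83 of 100 changed 4-fold, with 4 false calls. Genes that missed the threshold can therefore still differ.

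Named genes were called genes with a symbol and at least 5 CPM in the higher site (12 per direction at most), called list members, the 12 per direction with a symbol, at least 5 CPM on the higher side and the widest gap over the 10 libraries, and DIO2, PTN, BMP3, KCNE4, HOXC8, TBX4, TBX5, PITX1, LMX1B, EN1, HOXC10, HOXA13 and HOXD13. Other members are named for contrast after their values were seen. The members and gene lists were chosen with earlier results of these data known. Floors (3 counts) and intervals cover counting error only, since the deposited counts carry no molecular identifiers.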

Additional observations from a re-analysis of the deposited data

Results flagged for a closer look

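Of 163 genes named or looked up for the text, each group of 5 libraries was screened for 1 library far from the other 4 (gap over range above 0.71, Dixon). It flagged 16 of 326 groups, where chance flags about 1 in 20, and no gene had first-set and second-set libraries apart in opposite directions.

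On the upper foot side the dorsal library of the 4-month pig stood apart for KLF9 (167 CPM) and that of the 7-month pig for IGFBP2 (25.5 CPM) and the desmosomal cadherin gene DSC2 (2280 CPM). The 6-month library labelled snout stood apart for BMP2 (34.7 CPM).

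On the flank side the 4-month flank library stood apart for TBX4 (2.5 CPM), HOXD10 (4.49 CPM) and MEIS1 (34.9 CPM), the 8-month library for the transglutaminase gene TGM5 (17.5 CPM) and the 7-month library for MMP1 (5.76 CPM). The 6-month library labelled dorsal stood apart for SP8 (0.0521 CPM), PTCH1 (18.8 CPM) and the thyroid hormone inactivating deiodinase gene DIO3 (3.65 CPM). The 5-month library labelled dorsal stood apart for CTHRC1 (74.2 CPM), HOXC11 (0.281 CPM), HOXD12 (0.0176 CPM) and the keratin gene KRT10 (1570 CPM). The values of SP8, HOXC11 and HOXD12 lie far below those of the upper foot side.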

How the results depend on the processing

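The count of 20 genes (12 higher, 8 lower) was 20 with median-of-ratios scaling, with upper-quartile scaling and with TMM without the 20 most abundant genes, 21 with no low-count filter or a count minimum of 50, 16 in the 6 libraries alone (13 of the 20 among them) and 19 with a log2 fold change of at least 1. DESeq2 called 350 (152 higher, 198 lower, 43.4% higher against 60%), limma-voom 48 (18 and 30, 37.5% higher) and the fit with the pig as replicate block 32 (16 and 16, 50% higher). DESeq2 and limma-voom shared 20 and 18 genes with the main count. Leaving out 1 library gave from 1 to 42 genes, so most single calls are not stable at 3 libraries a site. The block ended the calls of DIO2, PAX9, HAPLN4 and AFF2 and added those of MEIS1, HOXB2 and THBS4 among the genes named. The count of 630 genes without overlap was 635 with median-of-ratios scaling, 584 with a count minimum of 50, 2235 in the first-set libraries alone, and 733 to 1184 with 1 library left out, where fewer libraries leave fewer chances to overlap. None of the 20 called genes changed sign in an alternative; of the 142 genes looked up and not called 19 did, among them EN1, MDK, KLF9, THRA and ADIPOQ. Genes at a few CPM or less, such as SP8, HOXD12, TRPM8 and PAX9, rest on few reads.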
